A study of Mus musculus with 16 samples.

Results

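The transcripts described here encode the machinery that folds and degrades proteins in the mitochondrial matrix. They are the chaperone genes Hspa9, Hspd1, Hspe1, Dnaja3, Grpel1 and Trap1 and the protease genes Lonp1, Clpp, Clpx and Afg3l2, 10 genes chosen by symbol from the 19108 in the count files. All 10 were present in every file and passed the filter on low counts. They were measured in quadriceps muscle of 4 transgenic (Tg) females, 4 Tg males, 4 wild-type (WT) females and 4 WT males. Tg mice carry the genotype ANT1(Tg)/+, an added copy of the gene for the adenine nucleotide translocase of heart and muscle (Slc25a4, formerly Ant1). All mice were on the C57BL/6 strain, 6 months old and on regular chow, and littermates served as controls where possible. The sources used here do not give the promoter that drives the transgene or the number of founder lines. From its title, the study concerns muscle wasting and the handling of cytosolic proteins under mitochondrial stress.

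Most matrix proteins are made in the cytosol, threaded unfolded through the inner membrane and refolded inside. Mitochondrial Hsp70 (Hspa9) pulls the chain in and also holds proteins in the matrix. There a J-domain cochaperone (Dnaja3) loads proteins onto Hsp70, and a nucleotide exchange factor (Grpel1) lets Hsp70 release them. The Hsp60 barrel (Hspd1) with its Hsp10 lid (Hspe1) encloses proteins while they fold, and Trap1 is the Hsp90 of mitochondria. LON (Lonp1) and the ClpXP pair, an unfoldase (Clpx) with a peptidase (Clpp), degrade proteins in the matrix, and Afg3l2 is a subunit of the inner membrane protease that faces it. Cells that build up unfolded mitochondrial protein are known to raise several of these genes, a programme called the mitochondrial unfolded protein response. In mammals it has been linked to the transcription factors CHOP (gene Ddit3), ATF4 and ATF5.

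The libraries held 17435895 to 30680324 counts, and the lowest count of any of the 10 genes in a library was 306. Slc25a4 checked the genotype labels. It averaged 9755 ± 876 CPM (counts scaled to library size) in Tg and 3399 ± 408 CPM in WT muscle (SD, n = 8 each), with no overlap. The 6 skeletal muscle markers summed to 159818 to 232365 CPM in Tg and 166215 to 268584 CPM in WT libraries, with medians of 180111 CPM in Tg and 225313 CPM in WT, and 2 of the 6 fell. Their part in the results below was not tested. All 7 adipocyte markers were detected in every library, and they summed to 181 to 1309 CPM in Tg and 173 to 3134 CPM in WT libraries. The median sum was higher in Tg (717 CPM) than in WT (468 CPM), while the median log2 difference of the 7 genes was -0.80, of the opposite sign. By edgeR 0 of the 7 were called, and 0 had an unadjusted p under 0.05. Of 2 erythrocyte markers 1 rose, while by edgeR 0 markers of endothelium, macrophages, fibroblasts, Schwann cells or satellite cells were called, and 0 had an unadjusted p under 0.05. The 4 libraries with the highest adipocyte sums were WT females 1 and 2, WT male 1 and Tg female 4, so results that moved without them are given with both values. In bulk muscle, fewer cells of a type and less RNA per cell cannot be told apart. Labels name no batch and do not link the mice to litters, and p-values for genotype set a difference against the spread between these animals.

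Promoter windows of 8 of the 10 genes were read from the RefSeq table (build GRCm38.p6, the assembly of mm10). No window of Hspa9 or Afg3l2 was read, so these genes were not searched for motifs. Each window runs from 250 bases before the annotated start to 50 bases after it. The RefSeq start of Dnaja3 lies inside the longer GENCODE gene. The windows had a GC content of 55.3 to 73.3% and a ratio of observed to expected CpG of 0.75 to 1.05, against medians of 52.7% and 0.384 over all 32851 windows of the table. Hspd1 and Hspe1 lie head to head: their annotated exons overlap by 112 bases on opposite strands, and the Hspe1 window shares 285 bases with the second of the 2 Hspd1 windows. The 5 windows below are printed because Hspe1 shares its start region with Hspd1, Trap1 and Clpx hold motif matches, Clpx is the gene that fell, and Dnaja3 and Lonp1 rose more than the other genes with a window. Capitals mark matches to the motifs searched, on either strand.
Hspe1 (plus strand, chr1:55087898-55088197): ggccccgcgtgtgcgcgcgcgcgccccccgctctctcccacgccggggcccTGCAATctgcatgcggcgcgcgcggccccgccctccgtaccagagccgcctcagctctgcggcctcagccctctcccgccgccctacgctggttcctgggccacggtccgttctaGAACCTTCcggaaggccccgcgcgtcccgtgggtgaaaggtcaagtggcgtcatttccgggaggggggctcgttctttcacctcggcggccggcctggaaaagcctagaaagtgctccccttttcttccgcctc
Trap1 (minus strand, chr16:4077761-4078060): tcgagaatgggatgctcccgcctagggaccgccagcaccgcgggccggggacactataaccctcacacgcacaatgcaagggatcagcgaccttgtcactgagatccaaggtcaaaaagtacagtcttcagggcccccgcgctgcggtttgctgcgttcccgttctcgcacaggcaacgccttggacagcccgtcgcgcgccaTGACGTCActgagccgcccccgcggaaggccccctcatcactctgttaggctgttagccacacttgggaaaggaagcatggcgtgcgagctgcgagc
Clpx (plus strand, chr9:65294010-65294309): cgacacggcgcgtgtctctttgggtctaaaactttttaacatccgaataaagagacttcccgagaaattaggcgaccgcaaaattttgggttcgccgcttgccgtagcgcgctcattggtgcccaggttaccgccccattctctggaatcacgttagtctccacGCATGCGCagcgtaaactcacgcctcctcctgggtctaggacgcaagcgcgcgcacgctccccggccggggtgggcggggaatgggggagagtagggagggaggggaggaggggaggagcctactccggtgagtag
Dnaja3 (plus strand, chr16:4683820-4684119): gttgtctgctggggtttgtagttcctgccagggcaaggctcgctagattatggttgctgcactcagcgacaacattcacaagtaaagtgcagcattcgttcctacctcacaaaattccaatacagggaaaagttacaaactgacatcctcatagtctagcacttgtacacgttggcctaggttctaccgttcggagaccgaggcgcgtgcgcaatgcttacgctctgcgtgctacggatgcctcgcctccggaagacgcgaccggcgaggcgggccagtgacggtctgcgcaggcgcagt
Lonp1 (minus strand, chr17:56626854-56627153): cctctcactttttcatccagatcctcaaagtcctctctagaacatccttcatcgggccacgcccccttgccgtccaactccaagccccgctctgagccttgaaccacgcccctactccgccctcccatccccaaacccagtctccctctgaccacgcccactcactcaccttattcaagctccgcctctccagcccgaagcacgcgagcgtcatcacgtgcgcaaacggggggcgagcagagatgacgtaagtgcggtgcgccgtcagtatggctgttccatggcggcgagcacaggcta

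The C/EBP core that CHOP can share, TGCAAT, stood 199 bases before the Hspe1 start. It lies in the stretch shared with the second Hspd1 window, where the same site is read from the other strand. This motif was in 8.40% of all windows. The heat shock element core, GAANNTTC, stood 84 bases before the Hspe1 start, also within the stretch shared with Hspd1, and was in 7.86% of all windows. The NRF1 core GCATGCGC was found in Clpx, 86 bases before the start, in Grpel1, 36 bases before it, and in 2.71% of all windows. The cAMP response element TGACGTCA stood 47 bases before the Trap1 start and was in 1.79% of all windows. The NRF1 core and the cAMP response element each hold a CpG. The members' windows are richer in CpG than the median window, so the shares over all windows are not a matched background. The C/EBP-ATF composite element, searched as TGATGCAAT and as TGATGNAAT, was in none of the 9 windows read, and in 0.192% and 0.965% of all windows. This leaves out Hspa9 and Afg3l2, which were not searched. The Dnaja3, Lonp1 and Clpp windows held none of the motifs searched, which says only that these letters are not in those windows.

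The first comparison asks which of these genes differed with the transgene. Averaged over the sexes, 9 of the 10 genes rose in Tg muscle and 1, Clpx, fell, each at an adjusted p under 0.05 from edgeR's quasi-likelihood test over 13666 genes. Of all tested genes, 17.2% rose and 13.3% fell by the same rule. The 10 genes were chosen with earlier results of these data known, and their count was not tested against these shares. The increases ran from 1.14-fold for Afg3l2 to 2.44-fold for Hspa9. The members' median log2 fold change was 0.32, against -0.01 over all tested genes. All 8 Tg libraries stood above all 8 WT libraries for 6 genes (Hspa9, Dnaja3, Grpel1, Trap1, Lonp1 and Clpp) and below them for Clpx. Over all tested genes, 5.23% stood above and 2.69% below in this way.

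**Figure D1:**
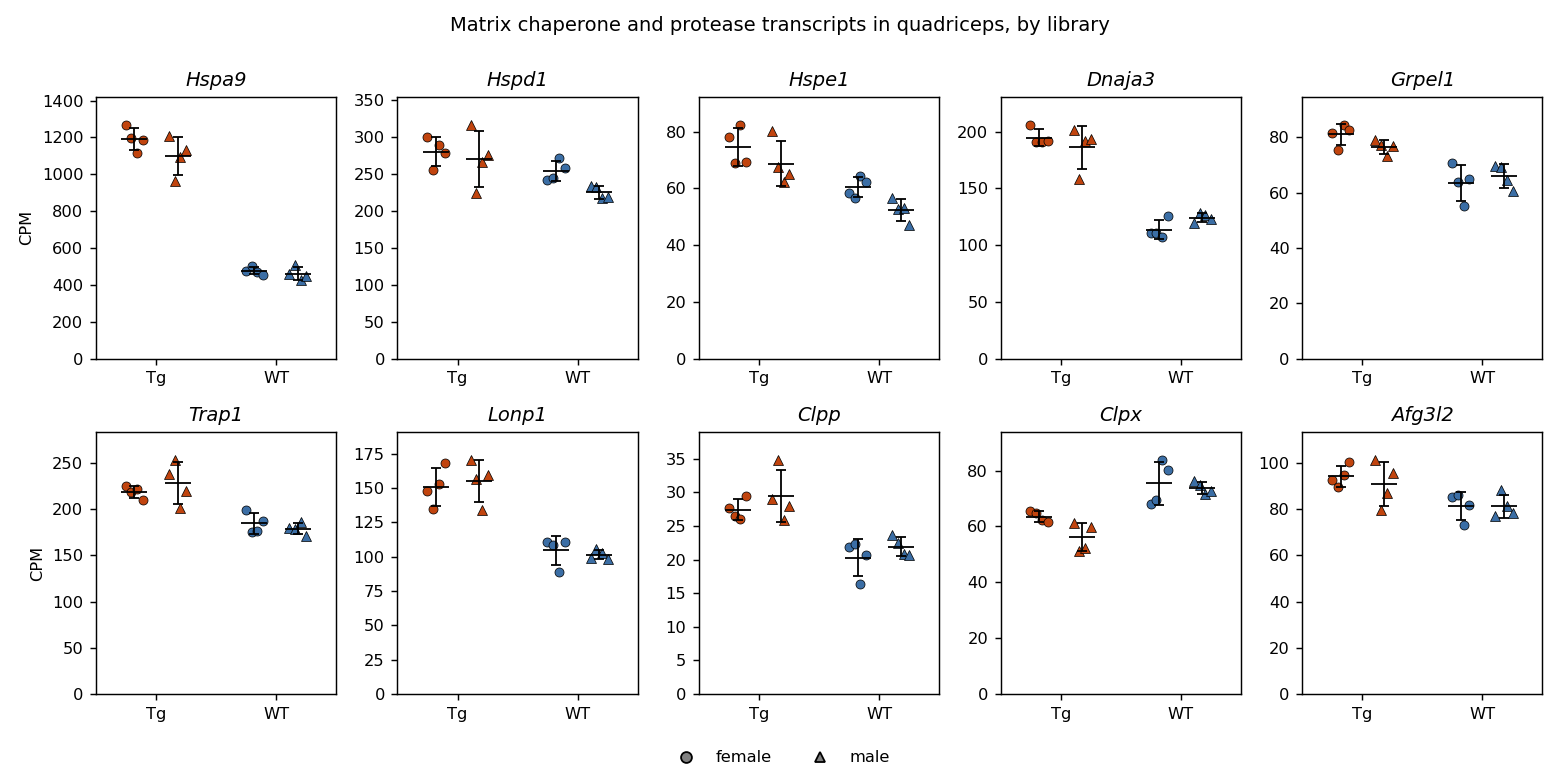
CPM (linear axes from 0) of the 10 genes in each library, with Tg left of WT, circles for females, triangles for males, and bars for the group mean ± SD (n = 4). Hspa9 shows the widest gap, with 961 to 1269 CPM in Tg and 429 to 507 CPM in WT libraries, and Clpx is the gene with lower values in Tg.

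The Hsp70 system held the largest increase. Hspa9 (chr18:34937414-34954357, minus strand, GENCODE M21 on mm10) had 1269, 1195, 1118 and 1185 CPM in Tg females, against 477, 501, 471 and 454 CPM in WT females. It had 1210, 961, 1093 and 1131 CPM in Tg males, against 461, 507, 429 and 446 CPM in WT males. Every Tg library stood far above every WT library, and the lowest Tg value belonged to Tg male 2. The averaged log2 fold change was 1.29 (SE 0.06, adjusted p = 1.79e-10), and 98.55% of tested genes had a smaller fold change.

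Its cochaperone gene Dnaja3 (chr16:4639989-4707695, plus strand) had 206, 191, 191 and 191 CPM in Tg females, against 111, 110, 107 and 126 CPM in WT females. It had 202, 158, 192 and 193 CPM in Tg males, against 120, 129, 126 and 123 CPM in WT males. The genotypes did not overlap, and Tg male 2 was again the lowest Tg library. Dnaja3 rose 1.60-fold (log2 fold change 0.68, SE 0.05, adjusted p = 1.31e-07). Its exons share 160 bases with Vasn on the same strand and 153 with Coro7 on the other, so its counts are uncertain to the extent of reads from these stretches.

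Grpel1, the exchange factor gene (chr5:36464998-36474080, plus strand), ranged from 73.2 to 84.6 CPM in Tg and from 55.0 to 70.8 CPM in WT libraries. It rose 1.22-fold (log2 fold change 0.28, SE 0.05, adjusted p = 0.000764), a small change with no overlap between the genotypes. It overlaps Tada2b on the opposite strand over 411 of its 3528 exonic bases, and whether the counting used strand is not known.

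The barrel and lid of the Hsp60 chaperonin rose 1.15-fold and 1.28-fold. Hspd1 (chr1:55077835-55088243, minus strand) had 300.0, 255, 289 and 278 CPM in Tg females, against 242, 245, 271 and 258 CPM in WT females. It had 317, 224, 266 and 276 CPM in Tg males, against 234, 232, 217 and 219 CPM in WT males. The genotypes overlapped in both sexes, with 5 of 8 Tg libraries above every WT library. The averaged difference was 0.20 on the log2 scale (SE 0.06, adjusted p = 0.0241), a 1.15-fold increase. That call was lost without Tg female 1 (0.19, adjusted p = 0.0517), without Tg male 1 (0.16, adjusted p = 0.0541) and without the 4 adipocyte-rich libraries (0.17, adjusted p = 0.149).

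Hspe1 (chr1:55088132-55091307, plus strand) had 78.2, 69.0, 82.4 and 69.1 CPM in Tg females, against 58.4, 56.4, 64.2 and 62.3 CPM in WT females. It had 80.2, 67.5, 62.3 and 65.0 CPM in Tg males, against 56.6, 52.6, 52.9 and 47.2 CPM in WT males. Within each sex the genotypes did not overlap. Over both sexes, 7 of 8 Tg libraries stood above every WT library. Hspe1 rose 1.28-fold (log2 fold change 0.35, SE 0.06, adjusted p = 0.000487). Transcripts of 7 other annotated genes matched the Hspd1 transcript, and those of 5 matched Hspe1 (1 each for Hspa9 and Clpx), at 90% identity or more over at least 150 bases. None of these other symbols is in the count files, and the sources used here do not say how reads that match several places were counted.

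Trap1, the mitochondrial Hsp90 gene (chr16:4039971-4077827, minus strand), ranged from 202 to 253 CPM in Tg and from 171 to 199 CPM in WT libraries. Its highest value was in Tg male 2, the library that was lowest for Hspa9, Hspd1 and Dnaja3. Trap1 rose 1.23-fold (log2 fold change 0.30, SE 0.05, adjusted p = 0.000381), without overlap. It shares 54 exonic bases with Dnase1 on the opposite strand.

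Of the protease genes, only Clpx, which encodes the unfoldase of the ClpXP pair, fell. Lonp1 (chr17:56614297-56626887, minus strand), the LON protease that also removes oxidised matrix proteins, had 148, 135, 153 and 168 CPM in Tg females, against 110.3, 109, 89.1 and 111 CPM in WT females. It had 170.3, 156, 134 and 159.6 CPM in Tg males, against 98.7, 105, 103 and 98.6 CPM in WT males. All Tg values lay above all WT values, and Lonp1 rose 1.49-fold (log2 fold change 0.57, SE 0.06, adjusted p = 5.61e-06).

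The ClpXP pair moved apart. Clpp, the peptidase gene (chr17:56990305-56996188, plus strand), ranged from 25.8 to 34.8 CPM in Tg and from 16.3 to 23.7 CPM in WT libraries. It rose 1.35-fold (log2 fold change 0.43, SE 0.07, adjusted p = 0.000326).

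Clpx, the unfoldase gene (chr9:65294260-65330658, plus strand), had 65.5, 64.7, 62.1 and 61.6 CPM in Tg females, against 68.2, 69.5, 83.7 and 80.1 CPM in WT females. It had 61.1, 51.2, 52.3 and 59.7 CPM in Tg males, against 76.3, 74.7, 71.6 and 72.6 CPM in WT males. No Tg library reached the lowest WT library. Clpx fell by 0.32 on the log2 scale (SE 0.05, adjusted p = 0.000312).

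Afg3l2 (chr18:67404764-67449172, minus strand) averaged 92.7 ± 7.15 CPM in Tg and 81.4 ± 5.17 CPM in WT libraries (SD, n = 8 each), with overlap. It rose 1.14-fold (log2 fold change 0.19, SE 0.06, adjusted p = 0.0212), the smallest increase of the 10 genes. The call was lost without WT male 1 (0.17, adjusted p = 0.0579), without Tg male 1 (0.16, adjusted p = 0.0504) and without the 4 adipocyte-rich libraries (0.18, adjusted p = 0.0736).

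**Figure D2:**
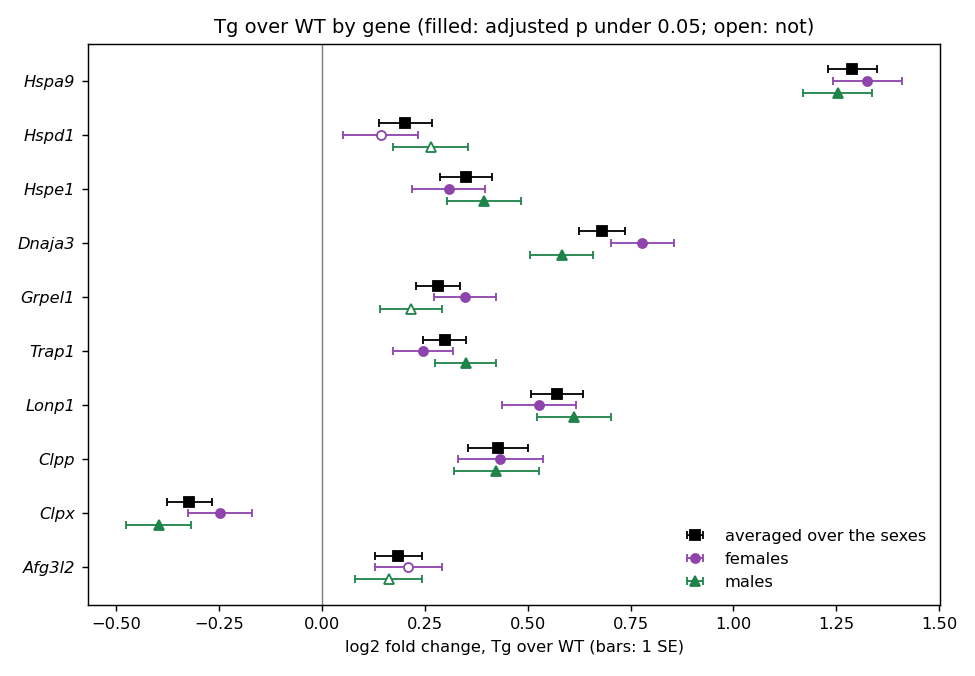
Log2 fold change, Tg over WT, of each gene averaged over the sexes, in females and in males, with bars of 1 SE; filled marks have an adjusted p under 0.05. Hspa9 stands at 1.29, 8 genes lie between 0.19 and 0.68, and Clpx lies at -0.32.

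In females, 7 genes rose and 1, Clpx, fell, where 10.1% of tested genes rose and 7.57% fell. In males, 6 rose and 1, again Clpx, fell, where 9.85% of tested genes rose and 8.39% fell. Hspd1 was not called in females (0.14, SE 0.09, adjusted p = 0.291) or in males (0.26, SE 0.09, adjusted p = 0.0545). Afg3l2 was called in neither sex, with 0.21 (SE 0.08, adjusted p = 0.0843) in females and 0.16 (SE 0.08, adjusted p = 0.196) in males. The male value was 0.11 without Tg male 1, 0.10 without the 4 adipocyte-rich libraries and 0.27 on total counts, and was called in none of these. Grpel1 was called in females (0.35, SE 0.08, adjusted p = 0.00472) and missed the threshold in males (0.22, SE 0.08, adjusted p = 0.0574). In females the calls of Hspe1 (0.31, SE 0.09, adjusted p = 0.0253), Trap1 (0.25, SE 0.07, adjusted p = 0.0294) and Clpx (-0.25, SE 0.08, adjusted p = 0.0366) were close to the threshold. Without the 4 adipocyte-rich libraries, Hspe1 (0.27, adjusted p = 0.132) and Trap1 (0.28, adjusted p = 0.0672) were no longer called in females, although the Trap1 difference was no smaller. Hspe1 was also lost without each of WT females 1 and 2 and Tg females 1 and 3 (0.0588 to 0.0843), and Trap1 without each of Tg females 1 to 3 and WT females 2 and 3 (0.0607 to 0.0757) and with females fitted alone (0.0609). Clpx in females was lost on total counts (adjusted p = 0.104), with no filter on low counts (0.0678), with females fitted alone (0.107) and without 6 single libraries in turn, namely WT females 3 and 4 and Tg females 1 to 4 (0.0611 to 0.105), with a log2 difference of -0.19 to -0.26 in those 6. Without the 4 adipocyte-rich libraries it was still called (-0.36).

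The test of the difference itself, the male minus the female genotype effect, called none of the 10 genes by edgeR, DESeq2 or limma-voom. None had an unadjusted p under 0.05 by edgeR, which called 1 of 13666 genes (0.00732%). Among the 10, the unadjusted p was smallest for Dnaja3, which rose by 0.58 in males and 0.78 in females on the log2 scale (difference -0.20, SE 0.11, adjusted p = 0.732). Averaged over the genotypes, none of the 10 was called between males and females by the 3 tools, where edgeR called 605 genes (4.43%). By edgeR, 1 had an unadjusted p under 0.05: Hspe1, with 68.7 ± 7.93 CPM in Tg males and 74.7 ± 6.72 CPM in Tg females, and 52.3 ± 3.88 CPM in WT males and 60.3 ± 3.55 CPM in WT females (SD, n = 4 each). Its male minus female difference was -0.16 on the log2 scale (SE 0.06, adjusted p = 0.177).

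Levels between genes were compared per kb of exonic length, taken over all annotated transcripts of a gene, so long forms that muscle may not make lower the value. Hspa9 was highest in both genotypes, with 266 ± 21.7 CPM per kb in Tg and 109 ± 6.17 in WT muscle (SD, n = 8 each). Hspd1 followed with 104 ± 10.7 in Tg and 90.7 ± 7.05 in WT muscle, then Trap1 with 86.9 ± 6.24 in Tg and 70.7 ± 3.40 in WT muscle. Afg3l2 was lowest, with 9.38 ± 0.724 CPM per kb in Tg and 8.25 ± 0.524 in WT muscle. That place rests on its exonic length of 9874 bases, the longest of the 10 genes. In plain CPM the lowest was Clpp, with means of 28.4 CPM in Tg and 21.1 CPM in WT muscle, against 92.7 and 81.4 CPM for Afg3l2. In Tg muscle the values of Hspa9 lay above all values of Hspd1, while in WT muscle Hspa9 was above Hspd1 within each of 8 libraries but their ranges overlapped, at 99.5 to 118 for Hspa9 and 82.1 to 103 CPM per kb for Hspd1. Dnaja3 and Hspe1 could not be ordered in Tg muscle, at 48.7 ± 3.67 and 48.6 ± 5.10 CPM per kb, while in WT muscle Hspe1 was above Dnaja3 in 8 of 8 libraries, at 38.2 ± 3.73 and 30.4 ± 2.13 CPM per kb. Clpx was seventh in WT muscle with 21.3 ± 1.52 CPM per kb, where its range overlapped those of its neighbours Lonp1 and Grpel1. In Tg muscle Clpx was ninth with 17.1 ± 1.52 CPM per kb, below the range of Grpel1. Hspa9 made up 40.2 ± 1.66% of the summed CPM per kb of the 10 genes in Tg and 25.4 ± 1.10% in WT muscle.

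Ratios within a library compare how far partners moved, since library size cancels. The 6 ratios were tested by an exact permutation test of genotype within the sexes, two-sided, with p adjusted over the 6 ratios; the smallest unadjusted p it can give is 0.000408. Hspd1 over Hspa9 ran from 0.213 to 0.262 in Tg and from 0.458 to 0.576 in WT libraries, a log2 difference of -1.09. Grpel1 over Hspa9 ran from 0.0631 to 0.0806 in Tg and from 0.117 to 0.151 in WT libraries, a mean log2 ratio of -3.86 in Tg and -2.86 in WT libraries. The exchange factor transcript thus stood lower against Hsp70 in every Tg library. Dnaja3 over Hspa9 differed less, by -0.61, with 0.160 to 0.175 in Tg and 0.220 to 0.294 in WT libraries. Clpx over Clpp ran from 1.47 to 2.44 in Tg and from 3.12 to 5.13 in WT libraries, a log2 difference of -0.75. These 4 ratios showed no overlap between the genotypes, and each had an adjusted exact permutation p of 0.000612. For Clpx over Clpp this outcome was fixed, since Clpx fell and Clpp rose without overlap, so its p adds nothing. It was fixed too for Hspd1 and Grpel1 over Hspa9, where the CPM ranges of the single genes left no room for overlap. The p-values of those ratios also add nothing. The ratios over Hspa9 all contain its rise and are not independent results.

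The other 2 ratios differed little. Hspe1 over Hspd1 ran from 0.234 to 0.301 in Tg and from 0.216 to 0.244 in WT libraries, with 6 of 8 Tg libraries above all WT libraries. Its log2 difference was 0.15 (exact permutation p = 0.00653, adjusted p = 0.00784), so the lid transcript rose slightly more than the barrel transcript. Lonp1 over Clpp ran from 4.49 to 5.86 in Tg and from 4.16 to 5.45 in WT libraries, with a log2 difference of 0.14 (exact permutation p = 0.0363, adjusted p = 0.0363). Its adjusted p rose to 0.0514 to 0.0804 when 1 of 10 libraries was left out (Tg females 3 and 4, Tg males 1, 3 and 4, WT females 1 and 2, and WT males 1, 2 and 4), and to 0.277 without the 4 adipocyte-rich libraries (difference 0.073).

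**Figure D3:**
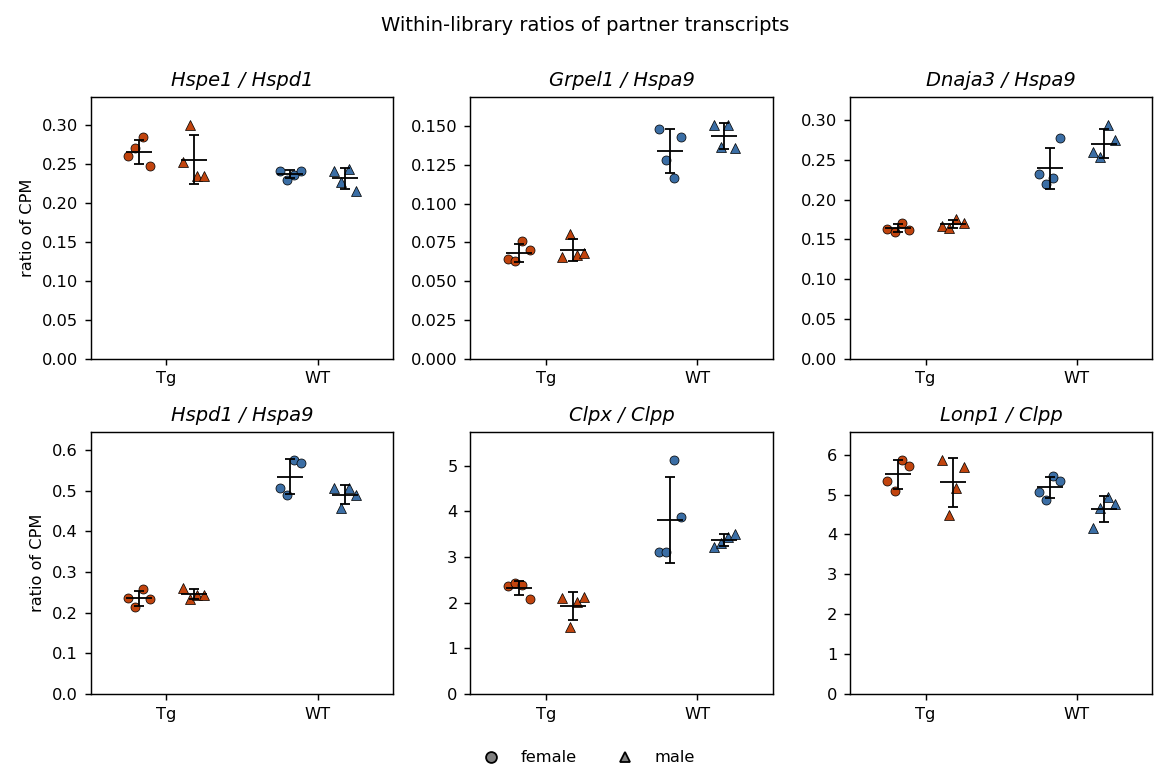
Within-library ratio of CPM for 6 pairs of partner transcripts (linear axes from 0), with Tg left of WT, circles for females, triangles for males, and bars for the group mean ± SD (n = 4). Grpel1, Dnaja3 and Hspd1 over Hspa9 and Clpx over Clpp are lower in all Tg libraries, while the other 2 ratios overlap.

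Hspe1 followed Hspd1 from library to library in WT muscle, with a Pearson r of 0.914 (exact permutation p = 0.00203, 0.00406 adjusted over 2 relations, n = 8) and a Spearman rho of 0.857 (exact permutation p = 0.0107, adjusted 0.0214). Without the 2 libraries farthest from the median of Hspd1, WT female 3 and WT male 3, r was 0.948 (exact permutation p = 0.0111, n = 6). Among Tg libraries r was 0.643 (exact permutation p = 0.0811, adjusted 0.0811, n = 8) and rho was 0.738 (exact permutation p = 0.0458, adjusted 0.0458). Without Tg males 1 and 2, the farthest there, r was 0.706 (exact permutation p = 0.115, n = 6). Leaving out Tg male 2 alone gave an r of 0.761 (exact permutation p = 0.048, n = 7). Whether the relation differs between the genotypes was not tested. Hspd1 and Hspe1 share 112 exonic bases on opposite strands, and whether the counting used strand is not known. The part of reads from that stretch in this relation and in the Hspe1 over Hspd1 ratio was not tested. The WT libraries include both sexes, and WT males averaged lower than WT females for both genes.

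**Figure D4:**
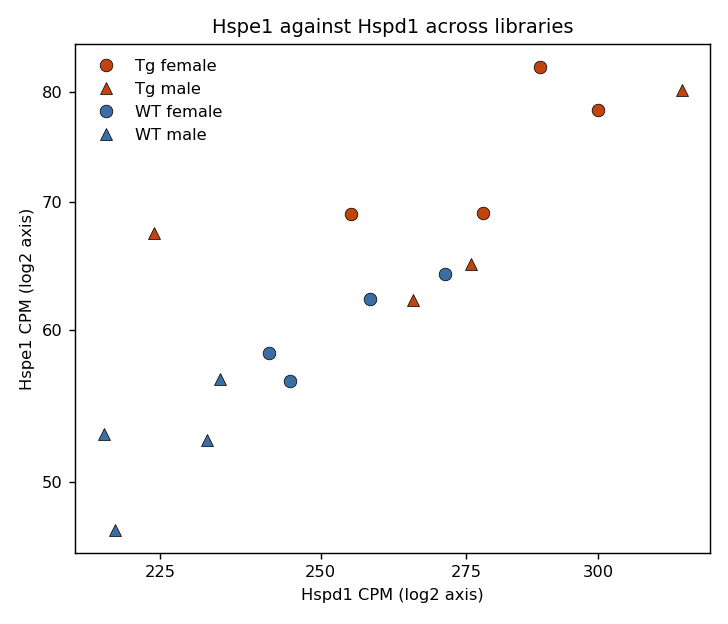
CPM of Hspe1 against CPM of Hspd1 in the 16 libraries, both on log2 axes, by genotype and sex. The WT libraries lie along a line, and Tg male 2 (224 CPM of Hspd1, 67.5 CPM of Hspe1) stands off the other Tg libraries.

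Other genes of the pathway were read from lists written with earlier results of these data known. Over all 13666 tested genes, 17.2% rose and 13.3% fell by the same rule. The counts of this and the following lists are to be read beside these shares, and no list was tested against them. Of 9 partners of matrix Hsp70 and Hsp60, 2 rose, 0 fell and 7 were not called, with a median log2 fold change of 0.11 against -0.01 over all genes. Timm44, which ties Hsp70 to the import channel, rose 1.15-fold (adjusted p = 0.00465) and Dnlz, which keeps Hspa9 soluble, 1.17-fold (adjusted p = 0.0344). Grpel2, the second exchange factor gene, singled out after its value was seen, had 21.9 ± 2.76 CPM in Tg and 20.9 ± 1.27 CPM in WT muscle (SD, n = 8 each), with a log2 difference of 0.07 (SE 0.08, adjusted p = 0.537).

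Of 18 other mitochondrial genes for proteases, holdases and presequence processing, 6 rose, 2 fell and 10 were not called (median 0.05). Clpb, a disaggregase of the intermembrane space, rose 1.40-fold (adjusted p = 1.17e-05), Phb2 of the prohibitin ring that holds Afg3l2 1.31-fold (2.97e-05) and the presequence peptidase Pitrm1 1.24-fold (0.000256). Immp1l, of the inner membrane peptidase, fell by 0.44 on the log2 scale (adjusted p = 0.0004). Afg3l1 and Spg7, which form the same inner membrane protease as Afg3l2, had log2 differences of -0.07 (SE 0.05, adjusted p = 0.314) and -0.03 (SE 0.07, adjusted p = 0.776). These 2 were singled out after their values were seen.

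Of 14 regulators linked to the mitochondrial unfolded protein response, 5 rose, 1 fell and 8 were not called (median 0.14). Atf5 had 451 ± 39.8 CPM in Tg and 45.5 ± 8.64 CPM in WT muscle (SD, n = 8 each), a 9.92-fold increase (adjusted p = 3.28e-12). Ddit3, which encodes CHOP, had 32.9 ± 5.78 CPM in Tg and 5.98 ± 2.39 CPM in WT muscle, a 5.52-fold increase (adjusted p = 6.49e-07). Atf4 rose 2.22-fold (adjusted p = 1.57e-10) and the heat shock factor gene Hsf1 1.27-fold (adjusted p = 0.00337). Of the 10 chaperone and protease genes, Hspa9 alone had a larger fold change than Atf4, and none reached that of Ddit3 or Atf5.

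Of 16 counterparts in the cytosol and endoplasmic reticulum, 3 rose, 1 fell and 12 were not called (median 0.11). Dnaja4 rose 1.42-fold (adjusted p = 0.0146), Hsp90ab1, a cytosolic Hsp90, 1.16-fold (0.0137) and the chaperonin subunit Cct3 1.14-fold (0.00318), while Dnaja1 fell by 0.33 on the log2 scale (adjusted p = 0.00326). The 5 Hsp70 family genes of this list, singled out after their values were seen, were not called. Their log2 differences were 0.02 (SE 0.08, adjusted p = 0.849) for Hspa8, 0.12 (SE 0.33, 0.806) for Hspa1a, 0.19 (SE 0.41, 0.767) for Hspa1b, 0.13 (SE 0.06, 0.0867) for Hspa4 and 0.10 (SE 0.09, 0.423) for Hspa5 of the endoplasmic reticulum. Of 14 genes of the matrix and both membranes that stand for mitochondrial content, 1 rose, 1 fell and 12 were not called (median 0.07). Atp5b of the ATP synthase rose 1.15-fold (adjusted p = 0.019), and the outer membrane channel gene Vdac1 fell by 0.22 on the log2 scale (adjusted p = 0.00437). Citrate synthase (Cs), also picked after its value was seen, had 850.4 ± 37.7 CPM in Tg and 837 ± 54.5 CPM in WT muscle (SD, n = 8 each; adjusted p = 0.777).

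**Figure D5:**
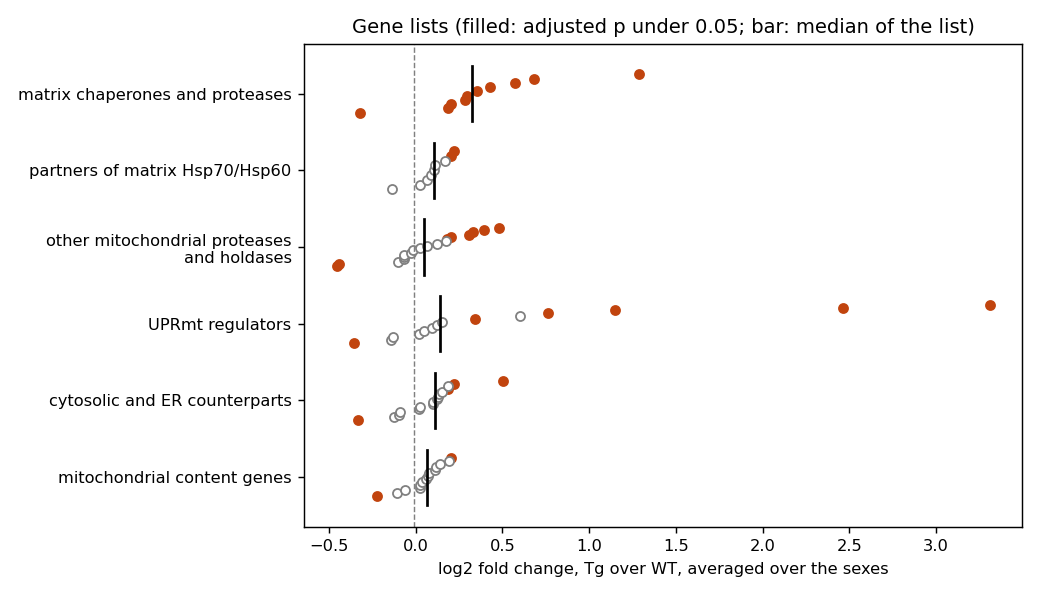
Averaged log2 fold change, Tg over WT, of each gene of the 10 matrix chaperones and proteases and of 5 other lists; filled points have an adjusted p under 0.05, bars are list medians and the dashed line is the median of all tested genes (-0.01). The 10 genes have a median of 0.32, the other lists 0.05 to 0.14.

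The genes whose log2 CPM was most like that of Hspa9 over the 16 libraries, by Pearson r, were Ghitm (0.992), Xpot (0.991), Trim66 (0.99) and Trib3 (0.99). Ghitm, which encodes an inner mitochondrial membrane protein, averaged 1897 CPM in Tg and 509 CPM in WT muscle, and Xpot, the tRNA export receptor gene, averaged 105.5 CPM in Tg and 37.4 CPM in WT muscle. Trib3, a pseudokinase gene induced by cell stress, averaged 75.2 CPM in Tg and 1.40 CPM in WT muscle. Those most like Hspd1 were Canx (0.912), Mfap1b (0.902), Chmp2b (0.899) and Prdx3 (0.892). Canx, a lectin chaperone gene of the endoplasmic reticulum, averaged 141 CPM in Tg and 114 CPM in WT muscle, and Prdx3, a mitochondrial peroxiredoxin gene, averaged 202 CPM in Tg and 185 CPM in WT muscle. Mfap1b has a near-identical copy, Mfap1a, so its counts are uncertain. These values describe likeness over libraries that share a genotype difference and carry no test.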

How the data were processed

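The 16 deposited files hold 1 value per gene symbol and library. The labels give no unit, and the deposited values were taken as estimated counts (expected counts), because part of them are fractional, none is below 0 and the libraries' totals differ. Trimming with cutadapt 1.2.1 and alignment tools (TopHat2, Bowtie2), after bcl2fastq, and build mm10 are listed in the submitters' processing notes. How reads were then assigned to genes, with which annotation and whether by strand, is not given in the sources used here. The kit was stranded and selected mRNA, per the labels' protocols.

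Values were rounded to whole numbers, which moved none by more than 0.5. Genes were filtered with filterByExpr (minimum count 10, minimum total 15), leaving 13666. The quasi-likelihood F test of edgeR 4.0.16 (R 4.3.3) was run on 4 group means over all 16 libraries, with a Benjamini-Hochberg adjustment over all tested genes and a threshold of 0.05. SEs of log2 fold changes were derived from F, as size over its square root. CPM used library sizes scaled by TMM factors (0.887 to 1.10). Adjusted p-values are from edgeR and two-sided unless another test is named. DESeq2 1.42.0, limma-voom (limma 3.58.1), other scalings and filters, an adipocyte covariate and leaving out libraries were alternatives. The procedure was tested on simulated data, with fewer changed genes than were called here. Changes as small as those of Afg3l2, Hspd1, Grpel1 and Trap1 were not simulated.

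Positions and exonic lengths are from GENCODE M21 (mm10), and promoter sequences from RefSeq. Transcript copies were searched with BLAST+ 2.17.0. Among 24 pairs of libraries within groups, log2 CPM correlated at 0.962 to 0.995 across genes, and the median chi-square of a pair was at least 1.22, where a resequenced library would give 0.455, so no library was taken for a duplicate. The 10 genes, the lists and the tests were chosen with earlier results of these data known. The text names all 10, from each other list up to 4 called genes with the smallest adjusted p, and the 4 genes most like Hspa9 and Hspd1. Mice and libraries are numbered in order of deposition, which pairs none of them.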

Additional observations from a re-analysis of the deposited data

Results flagged for a closer look

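Among 64 sets of 4 libraries (10 genes and 6 ratios in 4 groups), 4 had a library far from the other 3, with a gap to its nearest neighbour wide enough to pass Dixon's 95% critical value. Chance alone marks about 1 in 20 such sets. Tg female 1 had 206 CPM of Dnaja3, against 191 CPM in each of the other Tg females. WT female 3 had 89.1 CPM of Lonp1, against 109 to 111 CPM in the other WT females. Tg male 2 had a Grpel1 over Hspa9 ratio of 0.0806, against 0.0654 to 0.0679 in the other Tg males, and a Clpx over Clpp ratio of 1.47, against 2.02 to 2.13. Both ratios in Tg male 2 stayed on the Tg side of all WT libraries.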

How the results depend on the processing

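No paired analysis was possible because the labels give no replicate numbers and link no Tg mouse to a WT mouse. Of 740 values of the 10 genes in the Tg minus WT comparisons under the alternatives, 702 kept direction and call, 27 lost the call, 11 gained it and 0 changed sign. The averaged log2 fold change stayed between 1.27 and 1.36 for Hspa9 and between -0.39 and -0.25 for Clpx. The number of the 10 genes that rose was 7 without the 4 adipocyte-rich libraries and 7 to 9 with single libraries left out. In males, Hspd1 and Grpel1 were called on total counts (0.38 and 0.32), with upper quartile factors (0.26 and 0.22) and with a filter of 1 CPM in 8 libraries (0.26 and 0.22), Hspd1 without Tg male 2 (0.34, adjusted p = 0.00899) or WT female 3, and Grpel1 with males fitted alone or without WT female 1 or 3.

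In females the number of the 10 that fell was 0 on total counts, with no filter on low counts and with females fitted alone, and 0 to 1 with single libraries left out. Genes called in females numbered 1404 (858 higher, 546 lower) with females fitted alone, 914 higher without the 4 adipocyte-rich libraries, and 674 to 1463 lower with single libraries left out. On total counts, males had 2027 genes higher and 698 lower, against 1346 and 1146 with TMM factors. The genotype effect differed between males and females in 1 gene by edgeR, 11 on total counts, 0 with upper quartile factors, 87 with DESeq2, 8 with no filter, 7 without the 4 libraries, 13 with the adipocyte covariate and 0 to 23 with single libraries left out. Genes that differed between males and females numbered 1208 without the 4 libraries. The cause of these shifts was not tested.

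Uncalled differences near 0 changed sign. For the male minus female genotype effect on total counts these were Hspa9 (0.015), Clpp (0.059) and Afg3l2 (0.032). For male minus female they were Grpel1 and Lonp1 on total counts (0.012 and 0.018), with upper quartile factors (0.00061 and 0.011) and without the 4 libraries (0.021 and 0.065), Lonp1 with no filter (0.00145), and Afg3l2 without the 4 libraries (0.039). With single libraries left out, the genotype effect differed by -0.10 to 0.079 for Clpp and -0.10 to 0.0099 for Afg3l2, and males minus females by -0.047 to 0.012 for Grpel1, -0.040 to 0.028 for Lonp1 and -0.020 to 0.035 for Trap1. The Lonp1 over Clpp difference was 0.073 (adjusted p = 0.277) without the 4 libraries and 0.11 to 0.18 with single libraries left out. The r of Hspe1 with Hspd1 in Tg libraries was 0.782 on total counts and 0.529 to 0.761 with single libraries left out. The 10 genes had at least 306 counts in every library, and how depth limits their values was not tested.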

Other observations

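Some libraries sat at the ends of their genotype for many of the 10 genes. Among the 8 Tg libraries, Tg male 2 was lowest for 5 genes (Hspa9, Hspd1, Dnaja3, Clpx and Afg3l2) and highest for 2 (Trap1 with 253 CPM and Clpp with 34.8 CPM). Tg male 3 was lowest for the other 5. Among the 8 WT libraries, WT female 3 was lowest for 5 genes (Dnaja3, Grpel1, Lonp1, Clpp and Afg3l2) and highest for 3 (Hspd1 with 271 CPM, Hspe1 with 64.2 CPM and Clpx with 83.7 CPM). Neither Tg male 2 nor WT female 3 was among the 4 libraries richest in adipocyte markers. The sum in Tg male 2 (1246 CPM) was however close to that of Tg female 4 (1309 CPM), the lowest of those 4. The sum in WT female 3 was 641 CPM.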
